A study of Mus musculus with 3 samples.

Results

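The Ikaros family comprises the 5 zinc finger transcription factor genes Ikzf1 (Ikaros), Ikzf2 (Helios), Ikzf3 (Aiolos), Ikzf4 (Eos) and Ikzf5 (Pegasus). They were taken by symbol from the 55536 annotated genes of the gene table, and their 34 transcripts by gene identifier from the 141862 annotated transcripts of the transcript table. The RNA came from activated regulatory T cells, or Treg cells, a CD4 lineage that holds immune responses in check and depends on the transcription factor Foxp3, and was selected for polyA tails. The samples formed a single group of 3 libraries, which the labels number as technical replicates 1 to 3 of biological replicate 1. The cells were primary mouse cells of 1 biosample, male and aged 9 weeks. The labels name no strain, allele or agent and do not describe activation, sorting or any pooling, so no condition could be compared. Every SD below has n = 3 libraries of 1 biosample and is technical.

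Ikaros family proteins bind DNA through a group of zinc fingers near the N-terminus and pair with themselves and with each other through another group of fingers at the C-terminus. Splicing that removes enough of the N-terminal fingers while keeping the C-terminal ones gives proteins known to pair without binding DNA. In T cells the proteins recruit chromatin corepressors, above all the nucleosome remodelling and deacetylase (NuRD) complex. Helios and Eos are known for their high levels in Treg cells, Eos as a partner of Foxp3 in gene silencing, and Pegasus is the most distant relative of the others.

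The relatedness of the family is shown by the coding sequence of the second N-terminal finger, which contacts DNA in Ikaros and lies within the part of the protein that cereblon binds in human cells when a thalidomide-type drug is present. The sequences below run 5′ to 3′ on the coding strand, from the reference transcripts of GENCODE M21 (mm10), with the codons of the 2 cysteines and 2 histidines that hold the zinc in capitals.
Ikzf1 (chr11:11754024-11754086, plus strand): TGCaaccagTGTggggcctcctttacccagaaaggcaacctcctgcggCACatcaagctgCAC
Ikzf2 (chr1:69570581-69570643, minus strand): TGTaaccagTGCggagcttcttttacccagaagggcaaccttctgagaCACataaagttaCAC
Ikzf3 (chr11:98488940-98489002, minus strand): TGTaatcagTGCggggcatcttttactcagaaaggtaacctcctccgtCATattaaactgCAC
Ikzf4 (chr10:128640229-128640291, minus strand): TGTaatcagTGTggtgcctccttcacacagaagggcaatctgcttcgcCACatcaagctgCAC
Ikzf5 (chr7:131392501-131392563, minus strand): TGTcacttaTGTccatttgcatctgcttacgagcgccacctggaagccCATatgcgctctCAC
After translation this finger was identical in Ikzf1, Ikzf2, Ikzf3 and Ikzf4 at 21 of 21 residues, although the DNA of any 2 of them matched at only 48 to 53 of 63 bases. The Ikzf5 finger shared 5 of 21 residues with each of the others. Over the whole aligned proteins, identity was 50.5% to 57.2% among Ikzf1 to Ikzf4 and 28.0% to 32.0% between Ikzf5 and the rest. The expected counts of Ikzf1, Ikzf3 and Ikzf4 were whole numbers in all 3 libraries (tolerance 0.005), as counts without reads split between genes are.

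Libraries 1, 2 and 3 held 31445344, 32612609 and 37259281 expected counts, of which 0.125% to 0.182% lay in rows without a gene. A gene was called detected with at least 1 TPM (transcript level corrected for length and depth) in every library, and 10429 of 22028 protein-coding genes (47.3%) were. Markers of the labelled cell type were present: 8 of 8 Treg markers were detected, between the costimulatory receptor gene Tnfrsf4 at 951 ± 21.4 TPM and Gpr83 at 65.6 ± 2.17 TPM. T cell markers were likewise detected in 8 of 8, between the receptor constant gene Trac at 2846 ± 8.80 TPM and Cd4 at 394 ± 15.9 TPM.

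All 5 family genes were detected, and Ikzf2 was the most abundant. Ikzf2 (ENSMUSG00000025997.13, chr1:69531214-69687245, minus strand) had 361.31, 393.01 and 413.59 TPM in libraries 1, 2 and 3, which gives 389 ± 26.3 TPM and rank 337 among the 10429 detected protein-coding genes. Ikzf3 (ENSMUSG00000018168.8, chr11:98464902-98546031, minus strand) had 133.40, 123.51 and 131.95 TPM, or 130 ± 5.34 TPM and rank 1349. These genes did not overlap in any library, and Ikzf2 lay above Ikzf3 by 1.58 ± 0.13 on the log2(TPM + 1) scale. In the smaller gene table, a separate count per gene with an older annotation, this ratio per kilobase was 0.31 ± 0.01. There, Ikzf2 over Ikzf4 was 0.36 ± 0.07, against 2.55 ± 0.06 by TPM. The lengths were those of the larger gene table, which weight transcripts by their share of TPM (3174 bases for Ikzf2, 3189 for Ikzf3). These ratios per kilobase therefore still depend on the transcript shares, and the longest Ikzf2 transcript has 9278 bases.

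Ikzf1 (ENSMUSG00000018654.17, chr11:11685003-11772926, plus strand) had 75.12, 76.83 and 72.79 TPM, a mean of 74.9 ± 2.03 TPM and rank 2473. Ikzf4 (ENSMUSG00000002578.17, chr10:128630843-128645991, minus strand) had 64.10, 64.80 and 68.06 TPM, a mean of 65.7 ± 2.11 TPM and rank 2825. Ikaros and Eos transcripts were thus close, with Ikzf1 the higher of them in each library by 0.19 ± 0.08 (log2), but in the smaller gene table the direction turned and the ratio was -0.37 ± 0.06. Ikzf5 (ENSMUSG00000040167.16, chr7:131388652-131410521, minus strand) was the least abundant, with 17.42, 12.45 and 20.83 TPM, a mean of 16.9 ± 4.21 TPM and rank 6800. The median detected protein-coding gene stood at 29.2 TPM, so 4 of the 5 genes lay above it and Ikzf5 below it. In bulk RNA, fewer expressing cells and less RNA per cell cannot be told apart.

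By TPM, the order Ikzf2, Ikzf3, Ikzf1, Ikzf4, Ikzf5 was the same in each of the 3 libraries, whereas in the means of the smaller gene table Ikzf4 stood above Ikzf1. The criterion for a ratio to exceed the spread was 3 log2 values of equal sign with a mean above 2 SD, and 10 of 10 pairs of family genes met it. The smallest p of an exact sign-flip test over 3 libraries is 0.25, so none was computed. The widest ratio was that of Ikzf2 to Ikzf5 at 4.47 ± 0.35, and the narrowest that of Ikzf1 to Ikzf4. This narrowest ratio no longer exceeded the spread without library 1 (0.17) or without library 2 (0.16).

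The order above counts every annotated transcript of a gene, whether or not it encodes a protein. When TPM was summed over protein-coding transcripts alone, Ikzf2 had 101.59, 100.27 and 102.17 TPM in libraries 1, 2 and 3, a mean of 101 ± 0.974 TPM and only 26.1% ± 1.78 of its total. Ikzf3 had 97.19, 89.84 and 98.16 TPM of coding transcripts, a mean of 95.1 ± 4.55 TPM and 73.3% ± 0.922 of its total. The coding sums of Helios and Aiolos therefore lay side by side, with a log2 ratio of 0.09 ± 0.06 that did not exceed the spread. The other 9 of 10 pairs still did. Of the Ikzf2 coding sum, 27.80, 18.21 and 20.70 TPM came from Ikzf2-204 and Ikzf2-208, which have no bases of their own. The Ikzf2 to Ikzf3 ratio thus also depends on how reads were divided. Ikzf2 transcripts with the full set of N-terminal fingers had 70.6, 74.65 and 76.84 TPM, below the Ikzf3 coding level in each library.

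Ikzf1 kept 74.9 ± 2.02 TPM, since all of its 6 annotated transcripts are protein coding. Ikzf4 had 29.86, 28.00 and 32.90 coding TPM, a mean of 30.3 ± 2.47 and 46.0% ± 2.60 of its total. Ikzf5 had 15.99, 11.20 and 20.58 coding TPM, a mean of 15.9 ± 4.69 and 93.5% ± 4.63 of its total. On coding transcripts, Ikaros and Eos were thus no longer close, with Ikzf1 above Ikzf4 by 1.28 ± 0.15 (log2). The main Ikzf4 transcript outside the coding class, Ikzf4-208, has only 72 bases of its own. This ratio therefore depends on how reads were divided between the Ikzf4 transcripts.

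The 5 genes summed to 651.35, 670.6 and 707.22 TPM over all transcripts and to 319.75, 306.13 and 326.6 TPM over coding transcripts. Helios accounted for 57.5% ± 1.78 of the first sum and 31.9% ± 0.749 of the second. Aiolos accounted for 19.2% ± 1.13 of the first and 29.9% ± 0.535 of the second, and Ikaros for 11.1% ± 0.695 and 23.6% ± 1.41. Eos made up 9.71% ± 0.116 and 9.52% ± 0.489, and Pegasus 2.49% ± 0.567 and 4.99% ± 1.32.

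**Figure D1:**
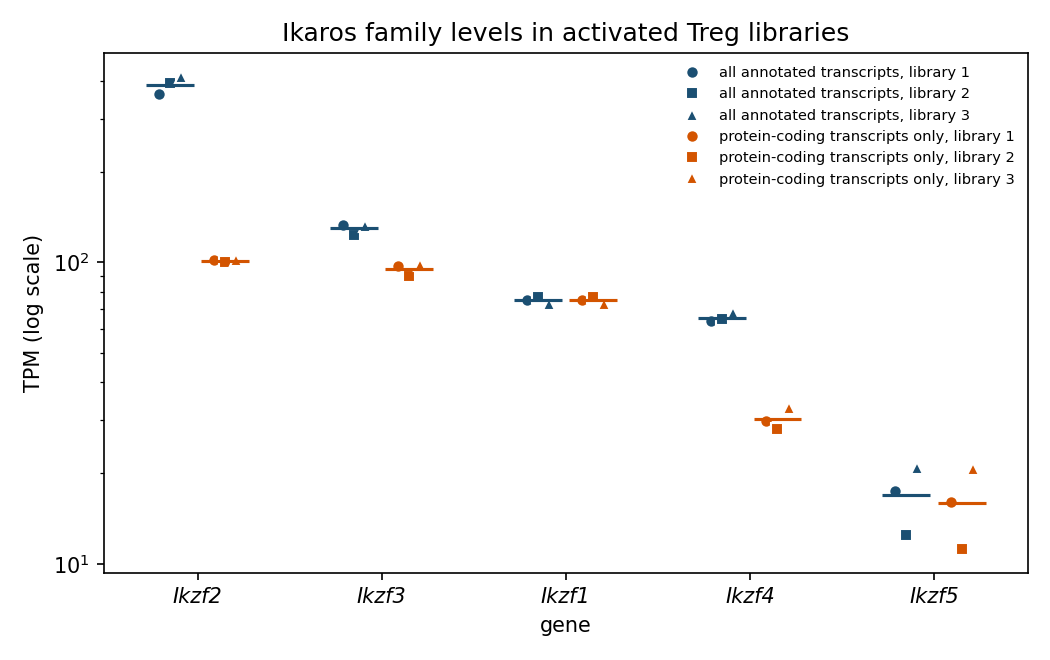
TPM of each Ikaros family gene (log scale) in libraries 1 to 3, over all annotated transcripts (blue) and over protein-coding transcripts only (orange); horizontal bars are means of the 3 libraries. Ikzf2 stands apart at 389 TPM over all transcripts and beside Ikzf3 at 101 and 95.1 TPM over coding transcripts.

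Helios showed the widest gap between its total and its coding transcripts. By TPM, its leading transcript was the retained-intron transcript Ikzf2-205, with 230.78, 268.73 and 289.65 TPM in libraries 1, 2 and 3, and by expected counts the protein-coding Ikzf2-201 led. Ikzf2-201 had 63.09, 68.03 and 70.75 TPM, below Ikzf2-205 in every library by a log2 ratio of 1.96 ± 0.08 (Ikzf2-205 over Ikzf2-201). By expected counts the ratio of Ikzf2-205 to Ikzf2-201 was -0.35, because Ikzf2-201 is 9278 bases long and Ikzf2-205 is 1905. Per kilobase of transcript, Ikzf2-205 averaged 5461 expected counts and Ikzf2-201 averaged 1422.

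The remaining Ikzf2 transcripts were less abundant. The other retained-intron transcript, Ikzf2-203, had 28.93, 24.01 and 21.77 TPM. Together the pair of retained-intron transcripts took 259.71, 292.74 and 311.42 TPM, which was 73.9% ± 1.78 of the gene's TPM and 44.4% ± 1.09 of its counts. Among 9599 detected protein-coding genes with at least 2 transcripts, the leading transcript by TPM was not protein coding in 12.9% and was a retained intron in 5.14%. Of 6414 detected genes with a retained-intron transcript, the median share of such transcripts was 11.1%, and 121 genes (1.89%) had a share at least as high as that of Ikzf2. Among the 1268 of these genes with at least 100 TPM, 35 (2.76%) did.

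The structure of Ikzf2-205 is unlike that of the Helios mRNA. Its 3 exons lie in the 5′ end of the gene, ending 5686 bases from the most 5′ annotated start, or 3.64% along the 156032-base gene. Its last exon begins as exon 3 of Ikzf2-201, runs past the splice site and reads 1651 bases into an intron of 105162 bases. Thus 1.57% of that intron is contained in the annotated transcript. Of its 1905 bases 1805 are shared with Ikzf2-203, and 0 of its bases lie outside all other annotated transcripts.

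The sequences below show the end of exon 3 in lower case, followed in capitals by the next exon in the spliced Ikzf2-201 and by the intron in Ikzf2-205 (chr1:69683180-69683239, minus strand). The last 60 bases of Ikzf2-205 follow (chr1:69681559-69681618, minus strand), with the closing run of A in capitals.
Ikzf2-201, spliced: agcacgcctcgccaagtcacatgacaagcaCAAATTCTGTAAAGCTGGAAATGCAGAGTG
Ikzf2-205, retained: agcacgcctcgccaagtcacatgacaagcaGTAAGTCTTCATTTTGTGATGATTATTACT
Ikzf2-205, last bases: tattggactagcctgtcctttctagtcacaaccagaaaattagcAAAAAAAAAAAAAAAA
Ikzf2-205 ends in a run of 16 A and Ikzf2-203 in a run of 17 A, both encoded in the reference sequence. Neither of the polyadenylation hexamers AATAAA and ATTAAA, searched on the transcript strand, occurs in the last 50 bases of either transcript. AATAAA begins 28 bases from the end of Ikzf2-201. Over all annotated transcripts, 22.4% of 21848 retained-intron transcripts and 50.2% of 58787 protein-coding transcripts had a hexamer in their last 50 bases. A closing run of at least 10 A was present in 0.925% of the retained-intron transcripts and 0.568% of the protein-coding ones. The part of the A run in the level of Ikzf2-205 was not tested.

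Transcripts elsewhere in the introns of Ikzf2 and on its strand were also measured. Gm29112, annotated as a sense intronic RNA, had 33.81, 35.60 and 38.92 TPM, and Gm28112, of the same class, had 21.6 ± 0.446 TPM. Neither ends in a run of A or has a hexamer in its last 50 bases. The antisense gene Gm29114, which overlaps the 3′ end of Ikzf2 on the opposite strand, had 2.33 ± 0.0985 TPM. The expected counts of Ikzf2 and Gm29114 were not whole separately but summed to whole numbers in 3 of 3 libraries, as reads divided between the pair give. Ikzf2 held 22050.86 to 30064.51 counts per library and Gm29114 held 106.14 to 138.49.

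**Figure D2:**
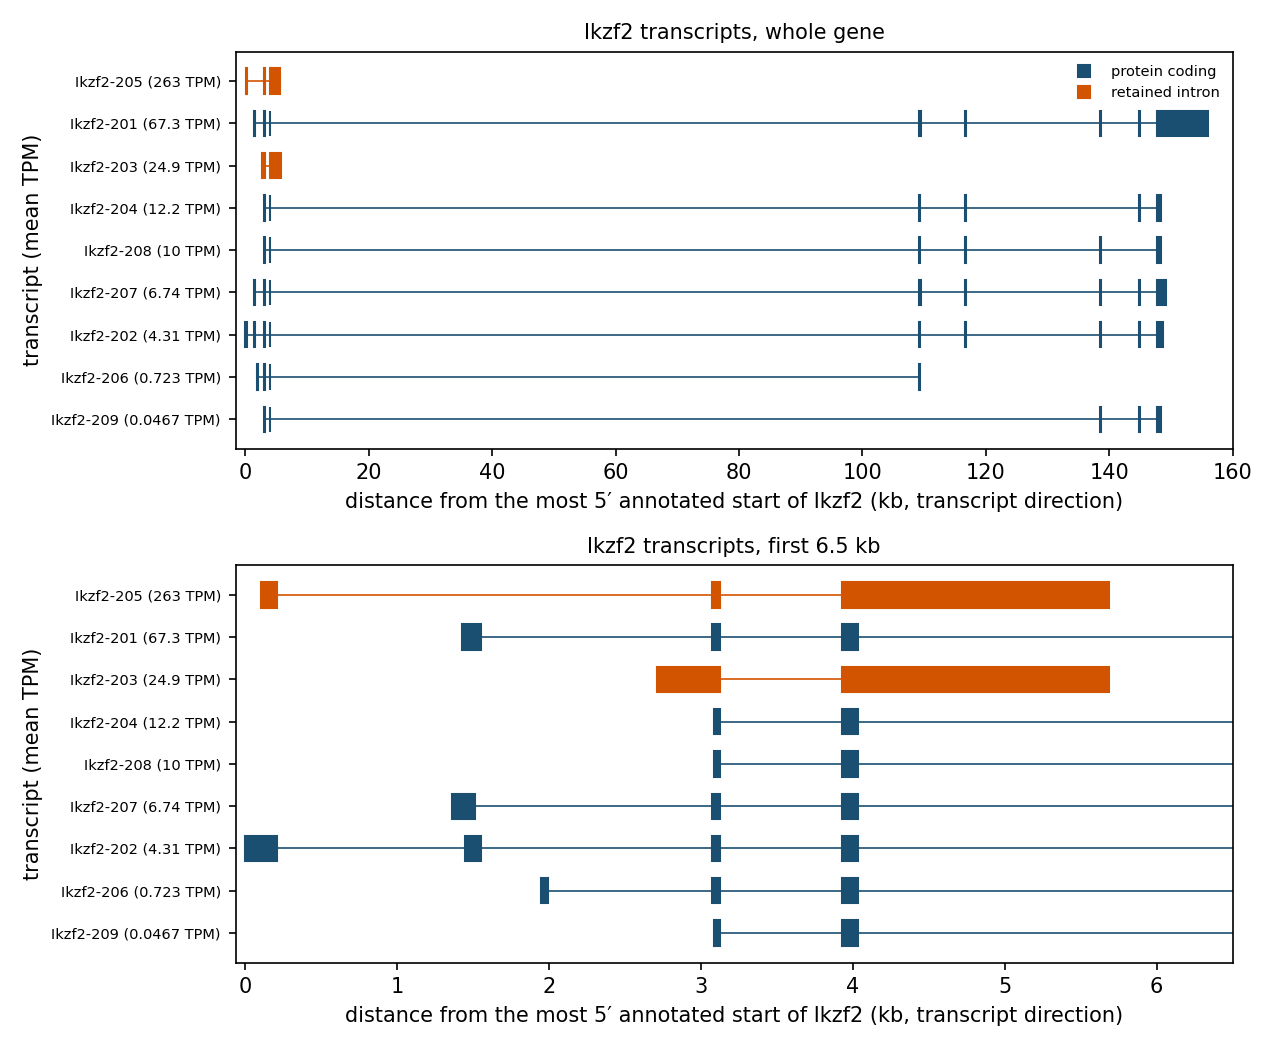
Annotated exons (boxes) and introns (lines) of the 9 Ikzf2 transcripts, by distance in kb from the most 5′ annotated start, for the whole gene (top) and its first 6.5 kb (bottom), with the mean TPM of the 3 libraries beside each name. The retained-intron transcripts (orange) end near the 5′ end of the gene, and Ikzf2-205 at 263 TPM exceeds the coding Ikzf2-201 at 67.3 TPM.

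Among the coding transcripts of Helios, those with the full N-terminal set of 4 fingers predominated. Fingers were counted in translated coding sequences by the pattern of 2 cysteines and 2 histidines. The full set was encoded by Ikzf2-201 and Ikzf2-207, which together held 70.6, 74.65 and 76.84 TPM, or 73.1% ± 3.10 of coding TPM. Transcripts with fewer N-terminal fingers held 30.99, 23.45 and 25.33 TPM, or 26.2% ± 3.77 of coding TPM. By counts, they held only 3.12% ± 0.569 of the gene, against 52.4% ± 0.573 for the full set. Most of their TPM came from Ikzf2-204 and Ikzf2-208, which are annotated at only 1365 and 1359 bases. The classes did not overlap in any library. Each transcript with fewer N-terminal fingers kept both C-terminal fingers, which are the ones used for pairing. Ikzf2-202 and Ikzf2-208 still encode 3 N-terminal fingers, and DNA binding was not tested.

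Ikzf2-202, Ikzf2-204 and Ikzf2-208 lack the segment that carries the first finger, shown here from Ikzf2-201 with the codons of its cysteines and histidines in capitals (chr1:69577781-69577858, minus strand).
Ikzf2, first-finger segment: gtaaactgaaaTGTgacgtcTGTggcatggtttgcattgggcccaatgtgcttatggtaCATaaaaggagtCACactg
This segment of 78 bases leaves the reading frame intact. Ikzf2-202 had 3.19, 5.24 and 4.49 TPM. Ikzf2-204, which also lacks the fourth finger, had 22.97, 0.88 and 12.77 TPM, and Ikzf2-208 had 4.83, 17.33 and 7.93 TPM. These transcripts moved in opposite ways between libraries 1 and 2, and neither has a base of its own outside the other annotated transcripts. Their sum was steadier, at 27.80, 18.21 and 20.70 TPM, so the split between them is uncertain. Ikzf2-209, with a single N-terminal finger, was listed at 0, 0 and 0.14 TPM.

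Aiolos was carried mainly by its only protein-coding transcript, Ikzf3-201, with 97.19, 89.84 and 98.16 TPM. It held 73.3% ± 0.922 of the gene's TPM and 84.3% ± 1.88 of its counts. The strict finger pattern found 3 N-terminal and 2 C-terminal fingers in Ikzf3-201, and a wider pattern that allows a cysteine in the last place found 4 and 2. The processed transcript Ikzf3-202 had 16.05, 13.32 and 15.59 TPM, the retained intron Ikzf3-203 8.41, 11.91 and 9.66 TPM, and the processed transcript Ikzf3-204 11.75, 8.44 and 8.54 TPM. None of these 3 overlapped Ikzf3-201 in level, which lay above Ikzf3-202 by 2.67 ± 0.08 (log2). The Ikzf3 retained-intron share of 7.71%, from mean TPM, lay below the median of 11.1% over genes with such a transcript.

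Ikaros was divided between a pair of long coding transcripts that both encode the full set of 4 N-terminal and 2 C-terminal fingers. Ikzf1-203 had 33.46, 34.87 and 34.99 TPM (46.0% ± 1.84 of the gene) and Ikzf1-204 had 24.86, 25.41 and 23.34 TPM (32.7% ± 0.589). Ikzf1-203 was the higher in each library, by 0.49 ± 0.08 (log2), which exceeded the spread. It holds an exon of 60 bases absent from Ikzf1-204, printed below, which adds 20 codons (535 against 515). The last exon of Ikzf1-204 is 814 bases longer than that of Ikzf1-203. Ikzf1-203 has 348 bases of its own, of which this exon is only a part, and the 814 are those of Ikzf1-204. Their ratio therefore does not measure inclusion of the exon alone.
Ikzf1, alternative exon (chr11:11740950-11741009, plus strand): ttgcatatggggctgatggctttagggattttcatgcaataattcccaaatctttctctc
The full finger set made up 77.6%, 78.5% and 80.1% of Ikzf1 TPM in libraries 1, 2 and 3. Ikzf1-202, which encodes 3 N-terminal and no C-terminal fingers in 198 codons, had 11.37, 12.95 and 8.26 TPM (14.4% ± 2.82), but 3.15% of counts since it is 911 bases long. Ikzf1-201, the annotated form that lacks the first finger and keeps both C-terminal fingers, was listed at 0 in all 3 libraries, where 3 counts would give 0.0955 TPM. The interval deposited with that value reached 1.03 to 1.16 TPM, and Ikzf1-201 has 0 bases of its own, so a low level was not detectable.

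Eos was split between a coding transcript and another of the annotated nonsense-mediated decay class, the pathway that removes mRNAs with an early stop. Ikzf4-208, the decay-class transcript, had 28.03, 29.62 and 30.59 TPM (44.8% ± 0.999 of the gene). Ikzf4-201, the coding transcript with 4 N-terminal and 2 C-terminal fingers, had 28.43, 27.49 and 30.79 TPM (44.0% ± 1.44). They overlapped, and their log2 ratio of 0.03 ± 0.07 (Ikzf4-208 over Ikzf4-201) did not exceed the spread. By counts Ikzf4-201 led in all 3 libraries, with a ratio of -0.56, being 5150 bases long against 3449 for Ikzf4-208.

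Ikzf4-208 has an additional exon of 72 bases (chr10:128643694-128643765, minus strand), whose start is printed below as far as its in-frame stop codon, in capitals.
Ikzf4, alternative exon to its stop: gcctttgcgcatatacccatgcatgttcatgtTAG
The reading frame ends after 71 codons, before the first finger. These 72 bases are all that Ikzf4-208 has of its own, and its last exon is 1626 bases shorter than that of Ikzf4-201, which has 1719 bases of its own. Decay-class transcripts held a median of 5.95% of TPM over 3206 detected genes that have one, and 227 genes (7.08%) had a share at least as high as that of Ikzf4, 49.6%.

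Pegasus was led by its full coding transcript Ikzf5-201, with 3 N-terminal and 2 C-terminal fingers and 10.99, 9.19 and 14.34 TPM (68.6% ± 5.35). Its other named transcripts were lower. Ikzf5-203, with a single N-terminal finger, had 2.87, 2.01 and 0 TPM, and Ikzf5-206 had 0, 0 and 3.85 TPM, so each was above 0 in only part of the libraries. The retained intron Ikzf5-207 had 1.42, 1.25 and 0.26 TPM. By counts Ikzf5-201 held 89.9% ± 0.681. Pstk, a gene on the opposite strand that overlaps Ikzf5, had 31.9 ± 0.648 TPM. The expected counts of Ikzf5, Pstk and Gm44624, also on the opposite strand, summed to whole numbers in 2 of 3 libraries while those of Ikzf5 alone did not, so part of the Ikzf5 counts depends on how shared reads were divided.

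**Figure D3:**
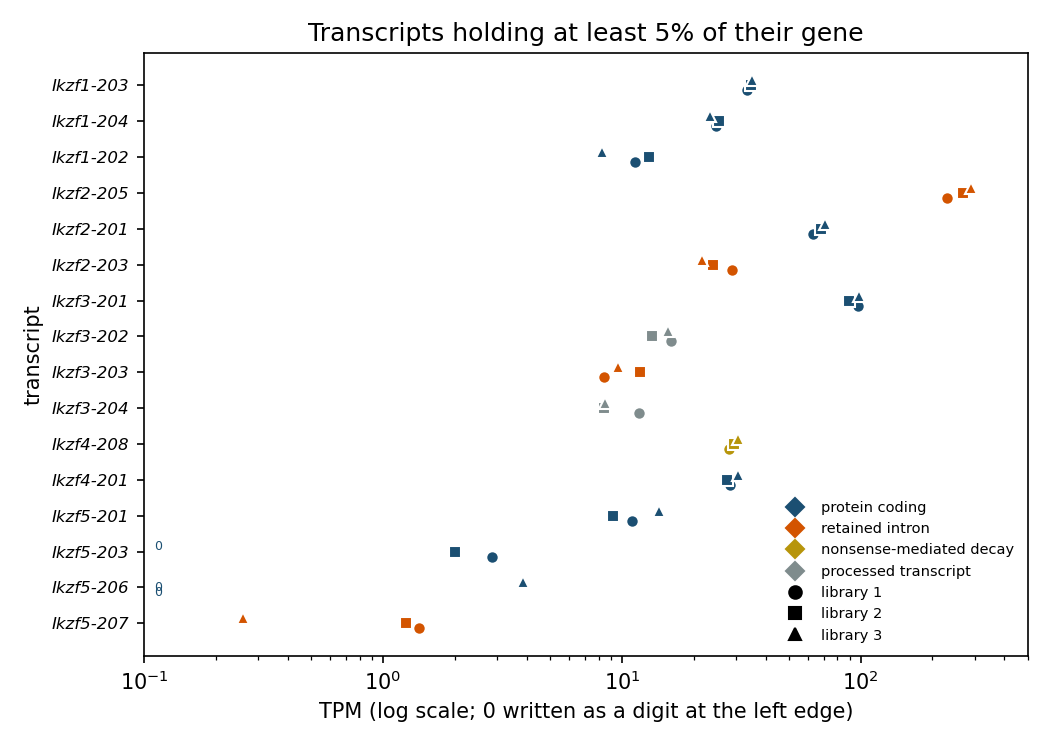
TPM (log scale) of each Ikaros family transcript that held at least 5% of its gene's TPM on average, in libraries 1 to 3, coloured by annotated class; values of 0 are written as a digit at the left edge. Ikzf2-205 stands highest in all 3 libraries, Ikzf4-208 and Ikzf4-201 overlap, and Ikzf5-203 and Ikzf5-206 each have values of 0.

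Across the family, the full N-terminal finger set made up 78.7% ± 1.27 of all TPM in Ikzf1, 73.3% ± 0.922 in Ikzf3, 68.6% ± 5.35 in Ikzf5, 46.0% ± 2.60 in Ikzf4 and 19.0% ± 0.482 in Ikzf2. By counts, which weigh long transcripts more, the shares were 96.3%, 84.3%, 89.9%, 59.6% and 52.4% for the same genes. Ikzf2 was lowest by both measures. Transcripts with fewer N-terminal fingers that kept C-terminal fingers were above 0 only in Ikzf2 and, in library 3, in Ikzf5 (Ikzf5-202 at 1.91 TPM). The annotation holds no such transcript of Ikzf3 or Ikzf4, so none could be measured there. For Ikzf1 it holds only Ikzf1-201, which has no base of its own, so a low level was not detectable.

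**Figure D4:**
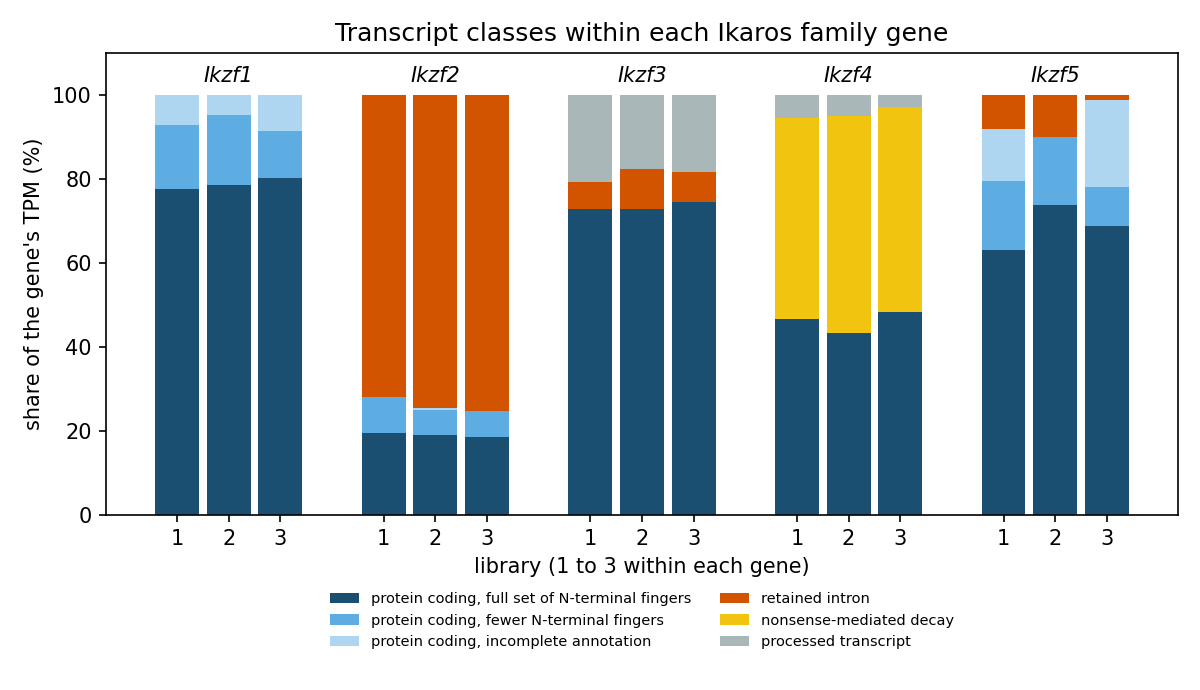
Share of each Ikaros family gene's TPM (percent, bars from 0 to 100) by transcript class in libraries 1 to 3. Coding transcripts with the full set of N-terminal fingers (dark blue) fill most of Ikzf1, Ikzf3 and Ikzf5, retained introns (orange) fill 73.9% of Ikzf2 on average, and decay-class transcripts (yellow) 49.6% of Ikzf4.

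The libraries differed by more than counting noise in most genes tested, the Ikaros family included. By a chi-square test of equal shares over the 3 libraries, with Benjamini-Hochberg adjustment over all genes tested, 5 of 5 family genes differed, but so did 65.8% of 15945 genes. Ikzf2 had the lowest adjusted p, at 702, 781 and 808 CPM (counts scaled to library depth only) in libraries 1, 2 and 3 (adjusted p = 1.77e-55). Ikzf5, with far fewer counts, varied more in size, at 33.5, 28.4 and 43.7 CPM (adjusted p = 6e-25). In counts, Ikzf2-205 rose over libraries 1 to 3, with 265, 317 and 337 CPM (adjusted p = 1.47e-63 over all transcripts). So did the coding Ikzf2-201, with 361, 399 and 410 CPM (adjusted p = 5.26e-24). The other retained-intron transcript, Ikzf2-203, which shares most bases of Ikzf2-205, fell, with 38.0, 32.4 and 29.0 CPM (adjusted p = 2.39e-09). By TPM, the coding sum of Ikzf2 was level, at 101.59, 100.27 and 102.17. The adjusted p-values were 1.07e-06 for Ikzf4, 0.00163 for Ikzf1 and 0.0318 for Ikzf3. When each chi-square was divided by the median overdispersion of all genes, 8.61, Ikzf2 alone remained (adjusted p = 6.04e-05), where 1.85% of genes did. Ikzf5 then stood at an adjusted p of 0.0519. In the smaller gene table, without that division, Ikzf5 alone of the family differed, where 33.4% of 11502 genes did.

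Of the 34 family transcripts, 25 had a summed count of at least 30 and were tested, and 22 differed between libraries, against 69.5% of 47437 transcripts tested. After division by the median overdispersion of transcripts, 10.4, 4 did, against 7.14% of all transcripts. They were Ikzf2-204 (adjusted p = 1.77e-09), Ikzf2-205 (3.45e-05), Ikzf2-208 (0.00047) and Ikzf5-202 (0.00764). None of these 4 has a base outside all other annotated transcripts, so their counts depend on how shared reads were divided. The test does not include that uncertainty. Ikzf2-201 stood at an adjusted p of 0.0601 after the same division. On the TPM scale, the coefficient of variation was 2.71% for Ikzf1, 3.22% for Ikzf4, 4.12% for Ikzf3, 6.77% for Ikzf2 and 24.9% for Ikzf5. The median was 5.68% over 6221 protein-coding genes with a mean of at least 1000 counts, so only Ikzf2 and Ikzf5 lay above it. Over all 10429 detected protein-coding genes the median was 7.69%, and only Ikzf5 lay above that.

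Among 57 T cell transcription factor genes, the family included, Ikzf2 ranked 4 by TPM of all transcripts and 20 by coding TPM. Ikzf3 ranked 19 and 24, Ikzf1 29 and 28, Ikzf4 32 and 40, and Ikzf5 52 and 51. Foxp3, at 135 ± 2.65 TPM, ranked 17 and 29. By all transcripts Foxp3 thus lay between Ikzf2 and Ikzf3, and by coding transcripts below Ikzf2, Ikzf3 and Ikzf1.

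The genes nearest in level, by mean log2(TPM + 1) over the 3 libraries, were as follows. Ikzf2 lay between Klf2 (437 ± 7.11 TPM), a regulator of T cell trafficking, and the hypoxia factor gene Hif1a (268 ± 15.9 TPM), and exceeded only Hif1a beyond the spread, by 0.53 ± 0.06. Ikzf3 was nearest to the chromatin organiser gene Satb1 (131 ± 2.10 TPM) and to Stat5b (126 ± 2.30 TPM), which signals for interleukin 2. Ikzf1 stood between Tox (70.0 ± 0.937 TPM) and Fli1 (81.1 ± 4.57 TPM). Ikzf4 was nearest to Stat5a (67.5 ± 5.69 TPM) and Nfatc2 (63.0 ± 2.08 TPM), and Ikzf5 to Myb (21.1 ± 0.675 TPM) and Gfi1 (21.3 ± 0.755 TPM). None of these other 8 differences from Ikzf1, Ikzf3, Ikzf4 or Ikzf5, nor that from Klf2, exceeded the spread.

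**Figure D5:**
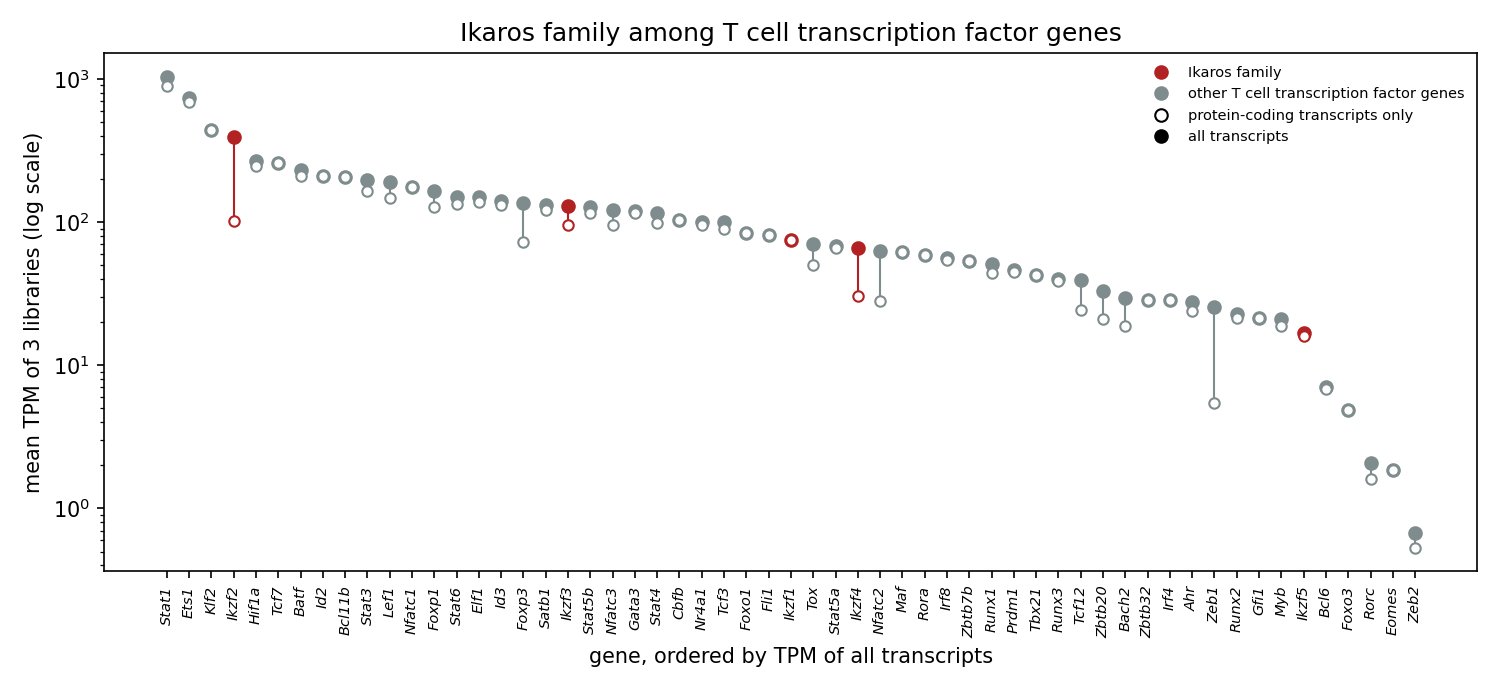
Mean TPM of 57 T cell transcription factor genes over the 3 libraries (log scale), ordered by TPM of all transcripts, with filled points for all transcripts and open points for protein-coding transcripts only. Ikzf2 (red) stands at place 4 by all transcripts, and its open point lies at 101 TPM.

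Genes for the known partners of Ikaros family proteins were broadly present. Of the 14 NuRD genes, 14 were detected, with a median of 105 TPM, against a median of 0.808 TPM and 47.3% detected over all protein-coding genes. Mbd2, which binds methylated DNA, reached 392 ± 21.3 TPM and the histone chaperone gene Rbbp4 286 ± 9.95 TPM, and the scaffold gene Gatad2b was lowest at 8.11 ± 0.641 TPM. Of 5 other corepressor and remodeller genes 4 were detected, with a median of 55.6 TPM. They were led by Ctbp1 (227 ± 9.61 TPM) and Sin3b (191 ± 8.54 TPM), whereas Ctbp2 had 0.827 ± 0.184 TPM.

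Enzymes that act on Ikaros proteins were detected too. Genes of casein kinase 2 and protein phosphatase 1, which set Ikaros phosphorylation, were detected in 6 of 6 cases with a median of 226 TPM, from Csnk2a1 (34.3 ± 1.03 TPM) up to Ppp1cc (341 ± 24.2 TPM) and Ppp1ca (1138 ± 44.9 TPM). Genes of the cereblon ubiquitin ligase, which degrades Ikaros and Aiolos in human cells when lenalidomide is present, were detected in 5 of 5, with a median of 106 TPM. Rbx1 (296 ± 17.3 TPM) and Ddb1 (128 ± 4.30 TPM) were the highest and Cul4b (22.9 ± 1.61 TPM) the lowest.

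Treg partner transcription factor genes were detected in 6 of 6, with a median of 112 TPM. Foxp1 (165 ± 7.23 TPM) and Foxp3 (135 ± 2.65 TPM) led, and Runx3 was lowest at 39.9 ± 2.28 TPM. Of 12 genes known from mouse as regulated by Ikaros family proteins, 7 were detected, with a median of 13.2 TPM. The Notch pathway gene Dtx1 (142 ± 8.16 TPM) and the interleukin 7 receptor gene Il7r (107 ± 1.75 TPM) were highest. The cytokine gene Il2, a target of Ikaros, Aiolos and Eos, had 0.79, 0.56 and 0.67 TPM and was below the detection level in all 3 libraries. Notch3 was lowest at 0.06, 0.10 and 0 TPM.

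Ikaros and Aiolos are also abundant in B cells, so markers of other blood cells were read beside the family. Of 10 B cell markers 7 were detected, and their summed level was 49.5 to 61.8 TPM per library, against 9536 to 9615 TPM for the 8 T cell markers. Cd79b was the highest at 29.3 ± 3.95 TPM, and Pax5, which defines the B cell lineage, had 0.0867 ± 0.0252 TPM. Plasma cell markers were detected in 4 of 6, with a summed level of 119 to 147 TPM, of which Xbp1, not restricted to plasma cells, gave 116 ± 9.50 TPM. Tnfrsf17 was at 0 in all 3 libraries, where 3 counts would give 0.186 TPM.

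Markers of CD8 T and NK cells were detected in 4 of 6 (summed level 25.7 to 27.9 TPM), from Klra8 at 0, with a floor of 0.126 TPM, to Cd8b1 at 21.4 ± 0.893 TPM. Myeloid markers were detected in 5 of 9 (47.7 to 52.2 TPM), from Flt3 at 0.0867 ± 0.0902 TPM to Lyz2 at 24.9 ± 6.03 TPM. Erythroid markers were detected in 5 of 5 (636 to 889 TPM), from Alas2 at 3.89 ± 0.297 TPM to the globin gene Hbb-bs at 265 ± 47.7 TPM. The part of such cells in the Ikaros family levels was not tested.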

How the data were processed

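PolyA RNA-seq was analysed from 3 technical libraries of 1 biosample of activated Treg cells. The files per library were gene levels (larger table), transcript levels, and a smaller table of gene counts. Per the deposited file notes, the gene and transcript levels were made on mm10 with GENCODE M21 and the smaller one from a separate alignment with GENCODE M4. No source used here names the aligner, the quantification program or the use of strand. The authors deposited expected counts, TPM and FPKM per gene and transcript, and each transcript's percent of its gene, which was recomputed here from TPM. The transcript table also deposited posterior mean TPM with an interval whose level is not stated. For family transcripts the deposited TPM lay inside that interval in 61 of 102 values. The values outside include main transcripts. Ikzf2-205 lay above its upper bounds of 219.58, 255.66 and 276.99 TPM in libraries 1, 2 and 3. Ikzf2-201, Ikzf3-201 and Ikzf4-201 also lay above theirs in all 3 libraries. The smaller table deposited whole-number counts for 22457 genes, with totals of 8827129, 8758421 and 9555924. It gave 8.12% of the expected counts for Ikzf2, 11.7% for Ikzf5, 19.5% for Ikzf3, 25.1% for Ikzf1 and 37.1% for Ikzf4, against a median of 44.7% over 10319 genes, so it served only as an alternative.

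Levels and shares used deposited TPM, and log2 ratios a pseudocount of 1. Values per kilobase in the smaller table used the gene lengths of the larger one, averaged over libraries. Expected counts were rounded for the chi-square test (2 degrees of freedom, summed count of at least 30, adjusted p of 0.05), whose code was tested on simulated data. Rows that name no gene (0.125%, 0.182% and 0.155% of counts) stayed out. Floors and chi-square tests cover counting error only, since the reads carry no molecular identifiers and are not independent molecules. Coding sequences and annotations came from GENCODE M21. Fingers matched cysteine, 2 to 4 residues, cysteine, 12 residues, histidine, 3 to 5 residues, histidine, and a gap of over 100 residues separated N- from C-terminal fingers. A transcript was called incomplete where its annotated coding end is open. edgeR 4.0.16 (TMM), R 4.3.3, Python 3.11.15, scipy 1.17.1, pandas 2.3.3 and Biopython 1.88 were used.

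The members and gene lists were chosen with earlier results of these data known. The text names all 5 genes, transcripts with at least 5% of their gene's TPM or leading by counts, the 2 nearest T cell factor genes of each member, the 2 highest and the lowest gene of each partner list, Foxp3, Il2, genes at 0, and the highest and lowest gene of each marker list. Transcripts under 5% and overlapping genes were named after their values were seen. Alternatives were a pseudocount of 0.1 or 0, CPM, the smaller table, coding transcripts only, shares of counts, a wider finger pattern, other library scalings and count minimums, detection at 10 TPM or above 0, and each library left out.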

Additional observations from a re-analysis of the deposited data

How the results depend on the processing

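No paired analysis was possible because the labels give a single group. Pair ratios kept their direction and their side of the 2 SD limit under other pseudocounts, CPM and each library left out, except that Ikzf1 over Ikzf4 (0.19) ranged from 0.16 to 0.23 over libraries left out and exceeded the spread only without library 3. In the smaller table, per kilobase, Ikzf1 over Ikzf4 reversed to -0.37 and Ikzf3 over Ikzf4 became 0.047, within the spread. On coding transcripts Ikzf2 over Ikzf3 became 0.092, within the spread. For Ikzf1, Ikzf2, Ikzf3, Ikzf4 and Ikzf5, levels were 186, 764, 255, 159 and 35.2 CPM without length correction and 43.4, 72.2, 58.0, 56.2 and 4.51 CPM per kilobase in the smaller table. The coding levels were 101 for Ikzf2, 95.1 for Ikzf3 and 30.3 for Ikzf4. By counts, shares were 54.0% for Ikzf1-203, 40.1% for Ikzf2-205, 84.3% for Ikzf3-201 (100% of coding transcripts), 39.5% for Ikzf4-208 and 89.9% for Ikzf5-201. By posterior mean TPM, an alternative chosen after seeing the data, Ikzf4-208 held 43.1%. Full finger sets by counts were 96.3% for Ikzf1, 52.4% for Ikzf2, 84.3% for Ikzf3, 59.6% for Ikzf4 and 89.9% for Ikzf5. Differences by counts follow from transcript length, and for the smaller table the cause was not tested.

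Of the 15945 genes tested, 10487 (65.8%) differed between libraries. Division by the median overdispersion left 295 (1.85%), and the smaller table gave 3845 of 11502 genes tested (33.4%). Of the 5 family genes, these settings left 1 (Ikzf2) and 1 (Ikzf5). Leaving out a library gave 6069 to 7265 genes (41.1% to 48.6% of those tested) and 3 to 5 family genes. Ikzf1 and Ikzf3 were lost without library 2, and Ikzf3 and Ikzf4 without library 3. Transcripts that differed numbered 17483 of 22887 tested (76.4%) at a summed count of at least 300, with 16 of the family among them. With a library left out they numbered 20373 to 22412 (47.6% to 52.0% of those tested), with 13 to 20 of the family. Genes led by a transcript that is not protein coding numbered 784 by counts against 1235 by TPM. In the smaller table the list medians were 89.8 (NuRD), 81.6 (other corepressors), 49.3 (kinase and phosphatase), 40.7 (cereblon ligase) and 54.3 (Treg partners).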
